A study of Mus musculus with 18 samples.

Results

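Among the 32285 genes measured in mouse iLS cells, 27 were at or near the detection limit in control cells on day 6 and clearly present on the same day in cells with a NUTM1 fusion. They were chosen by their levels alone. The mean over the 3 control libraries of day 6 had to be at most 0.5 CPM (the count divided by the library total, times 1000000), and the mean over the 3 libraries of at least 1 fusion had to be at least 4 CPM. Lin28b and genes whose names start with Hoxa, Igh, Igk, Igl or Hist were left out, which removed Hoxa9 and Lin28b from the 29 genes within these limits. Of the 27 genes, 15 reached 4 CPM in BRD9-NUTM1 (BN1) cells only, 6 in AFF1-NUTM1 (AFFN1) cells only and 6 in both. The day 6 values were thus used for the choice, and all day 6 differences from control or between the fusions are given as a description without a test. The libraries of day 14 took no part in the choice.

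RNA came from FACS-sorted CD45.2+ bone marrow cells of the C57BL/6 strain. They are named iLS, which the labels do not spell out. The 6 groups of 3 libraries were control cells (genotype CD45.2(+), and Mock in the table of day 6), cells with BRD9-NUTM1 and cells with AFF1-NUTM1, each on day 6 and on day 14. The labels leave out how the fusions were delivered, the age of the animals and whether replicates came from separate animals or cultures. A p-value here measures only the spread between these libraries, which may be technical. Library names follow 1 pattern on day 6 and another on day 14, so day and experiment cannot be told apart. Libraries held 14182539 to 17702578 counts on day 6 and 17813841 to 18383449 on day 14, so that 1 CPM stood for 14 to 18 reads.

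NUTM1 is normally transcribed in the testis, and its protein binds the acetyltransferases p300 and CBP. In fusion with a chromatin or elongation partner it is known to bring histone acetylation to sites that the partner selects, and genes near such sites can be transcribed where they are usually silent. BRD9 is a bromodomain subunit of a SWI/SNF remodelling complex, and AFF1 is a scaffold of the super elongation complex. Fusions of NUTM1 are known from B-cell precursor leukemia of infants.

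The sorted cells carried the markers of their label. Ptprc, which encodes CD45, was at 151 to 459 CPM in the 18 libraries, and all 15 hematopoietic and early B-lineage markers had a mean of at least 1 CPM in each day 6 group. The summed level of these markers was 7030 to 10400 CPM in control, 9680 to 10500 CPM in BN1 and 8660 to 10500 CPM in AFFN1 on day 6. Of 13 stromal markers, 5, 5 and 9 were at 1 CPM or more in control, BN1 and AFFN1, and their summed level was 31.5 to 106 CPM, 15.3 to 90.2 CPM and 44.1 to 170 CPM. Summed erythroid and megakaryocyte markers were 3.48 to 4.07 CPM in control, 34 to 36.1 CPM in BN1 and 6.23 to 8.1 CPM in AFFN1. T and NK markers were at 37.2 to 93.9, 80.7 to 94.1 and 59.8 to 72.3 CPM, myeloid markers at 90.7 to 223, 101 to 195 and 120 to 138 CPM, and endothelial markers at 148 to 293, 161 to 204 and 175 to 226 CPM. Most of the endothelial sum was Pecam1, at 168, 163 and 197 CPM, with Eng at 39.4, 13 and 4.14 CPM. Kdr was at 1.82, 0.627 and 5.98 CPM, and Cdh5, Emcn and Cldn5 were at 0 CPM in all 3 groups. The part of other cell types in the 27 genes' levels was not tested, and in bulk RNA fewer cells with a transcript and less of it per cell cannot be told apart.

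**Figure D1:**
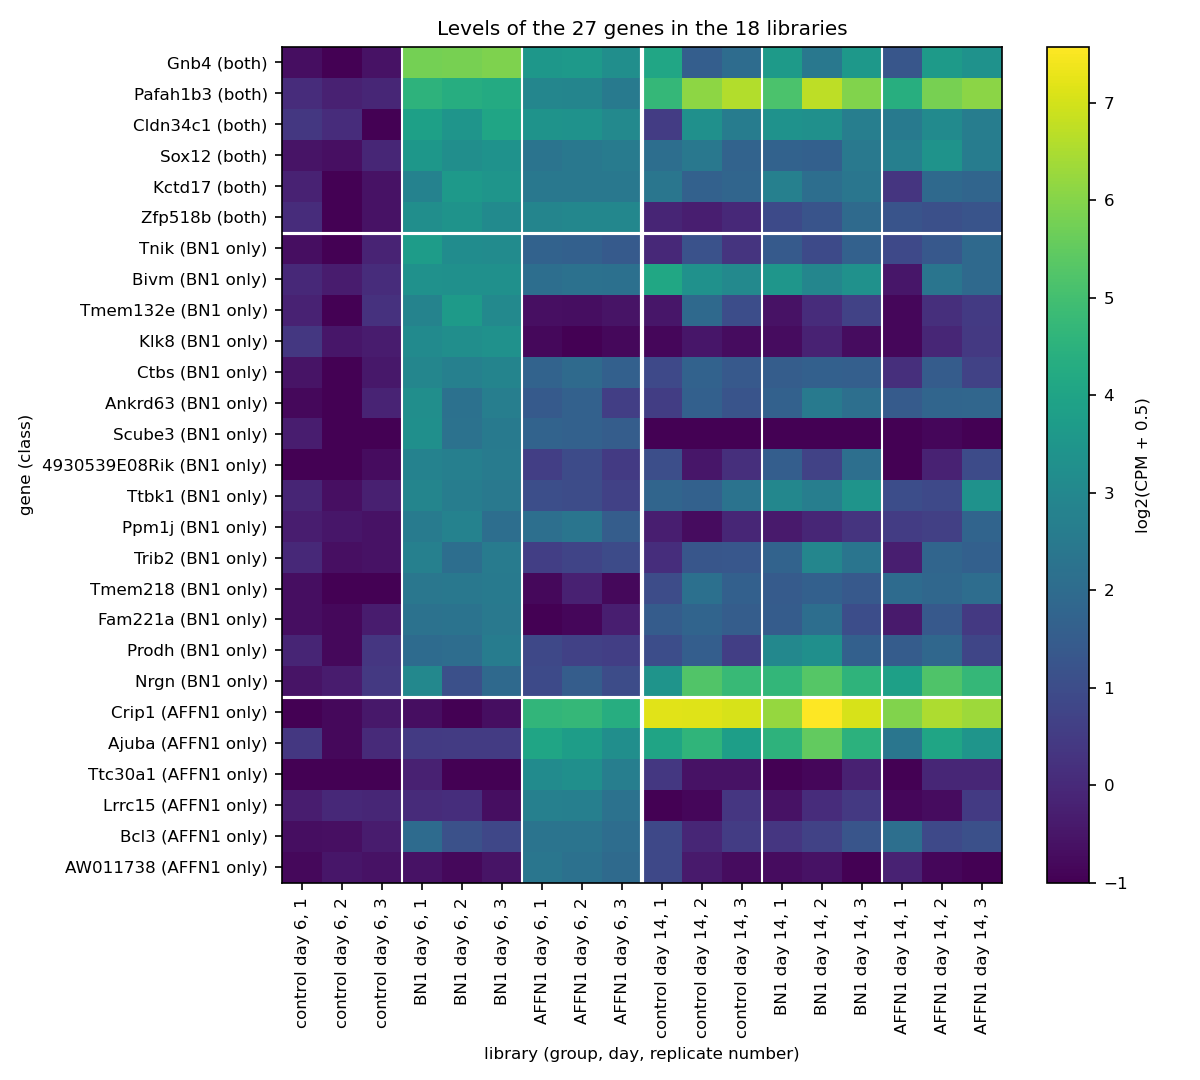
Each row is 1 of the 27 genes with its class and each column 1 of the 18 libraries; colour is log2(CPM + 0.5). On day 6 the control columns are dark throughout, and on day 14 21 of the 27 control means are above 0.5 CPM, with Crip1, Pafah1b3 and Nrgn bright in all 3 groups and Scube3 dark.

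The 6 genes on in both fusions were led by Gnb4 (ENSMUSG00000027669; mm10 chromosome 3, 32580332 to 32616585), a G protein beta subunit that passes signals from surface receptors. Its level on day 6 was 0.124, 0 and 0.169 CPM in the control libraries, 54, 55.6 and 59.2 CPM in BN1 and 11.1, 11.6 and 8.83 CPM in AFFN1. That was 574-fold and 107-fold the control mean, and the BN1 mean was 5.35-fold the AFFN1 mean. The control value rests on 5 reads in 3 libraries. No BN1 library overlapped with an AFFN1 library, and none of either with control.

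Pafah1b3, a catalytic subunit of an enzyme that inactivates platelet-activating factor, was at 0.56, 0.353 and 0.452 CPM in control, 22.6, 19.7 and 18.5 CPM in BN1 and 7.1, 6.89 and 5.23 CPM in AFFN1. Cldn34c1, of the claudin family of junction proteins, had 13.7 ± 2.86 CPM with BN1 and 9.18 ± 1.3 with AFFN1 (SD, n = 3) against 0.457 ± 0.415 CPM in control. Sox12, a SoxC transcription factor, had 9.96 ± 1 and 4.88 ± 0.491 CPM against 0.26 ± 0.168 CPM. Kctd17, a BTB-domain adaptor, had 9.66 ± 2.83 and 4.89 ± 0.0322 CPM against 0.181 ± 0.187 CPM. The zinc finger gene Zfp518b (ENSMUSG00000046572; mm10 chromosome 5, 38668484 to 38684826) had the smallest ratio between the fusions of the 6. It was at 0.56, 0 and 0.169 CPM in control, 8.99, 10.2 and 8.19 CPM in BN1, and 6.9, 7.37 and 7.32 CPM in AFFN1. In all 6 genes the mean was higher in BN1 than in AFFN1, by 1.27-fold for Zfp518b and by up to 5.35-fold for Gnb4, a difference that was not tested because the same libraries chose the genes.

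**Figure D2:**
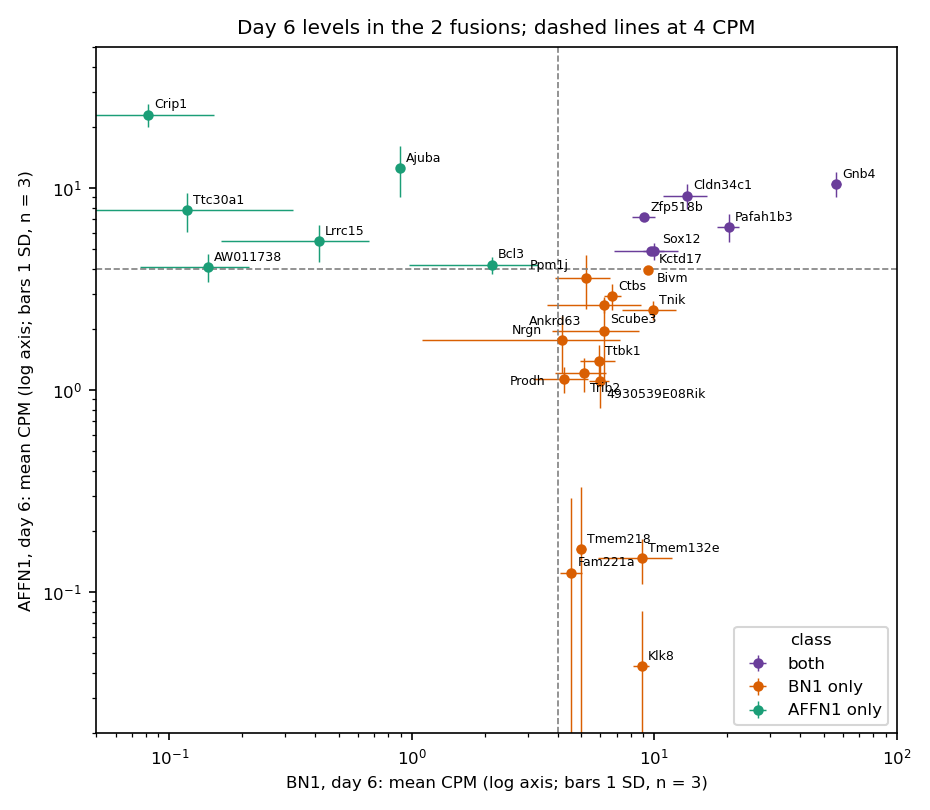
Each point is 1 of the 27 genes, with its mean CPM in BN1 on the x axis and in AFFN1 on the y axis (log axes, bars 1 SD over 3 libraries, cut where they reach below the axis). Of the BN1 class, 11 genes lie between 1 and 4 CPM in AFFN1 and 4 lie near 0, while Crip1, Ttc30a1, Lrrc15 and AW011738 stand at the upper left, at 0.0815 to 0.414 CPM in BN1.

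The 15 genes of the BN1 class fell into a shared and a separate part when AFFN1 was set beside them. In 11 of the 15 the AFFN1 mean was above 0.5 CPM but under the limit of 4 CPM, so these genes were not silent in AFFN1. Their distance to that limit varied, and 4930539E08Rik was at 5.97 CPM in BN1 and 1.11 CPM in AFFN1. Bivm was the closest, at 9.45 ± 0.171 CPM with BN1 and 3.94 ± 0.148 with AFFN1 (SD, n = 3), followed by the protein phosphatase gene Ppm1j at 5.24 ± 1.33 and 3.6 ± 1.08 CPM. Tnik, a kinase that acts with TCF and beta-catenin in Wnt signalling, had the highest BN1 mean of the class. Its level was 0.124, 0 and 0.395 CPM in control, 12.7, 8.53 and 8.32 CPM in BN1, and 2.72, 2.58 and 2.21 CPM in AFFN1. Scube3, which encodes a secreted signalling glycoprotein, was at 9.11, 4.17 and 5.33 CPM in BN1, 2.85, 2.7 and 2.4 CPM in AFFN1 and 0.311, 0 and 0 CPM in control.

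Of the shared genes, Ctbs, a lysosomal chitobiase, had 6.72 ± 0.539 CPM with BN1 and 2.93 ± 0.432 with AFFN1 (SD, n = 3). The pseudokinase Trib2, which can drive myeloid leukemia in mice through degradation of C/EBP alpha, had 6.11, 3.78 and 5.46 CPM in BN1, 0.995, 1.2 and 1.45 CPM in AFFN1 and 0.497, 0.141 and 0.169 CPM in control. Prodh, the mitochondrial proline dehydrogenase, had 4.25 ± 1.1 CPM in BN1 and 1.14 ± 0.167 CPM in AFFN1, and the tau-tubulin kinase gene Ttbk1 5.91 ± 0.982 and 1.39 ± 0.277 CPM. Ankrd63 was at 6.21 ± 2.42 and 1.96 ± 0.866 CPM, and Nrgn, which encodes the calmodulin-binding neurogranin, at 4.17 ± 3.07 and 1.77 ± 0.548 CPM. The Nrgn mean in BN1 rested on the first library, with 7.58, 1.63 and 3.3 CPM. For 4930539E08Rik the control libraries held 2 reads against 288 in BN1, a ratio of 144 (95% counting interval 39.4 to 1190), and 53 in AFFN1, a ratio of 26.7 (7.03 to 226).

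The other 4 genes of the class had means of 0.0431 to 0.163 CPM in AFFN1. Klk8, a kallikrein-related serine protease also known as neuropsin (mm10 chromosome 7, 43797577 to 43803826; ENSMUSG00000064023), was at 8.17, 8.92 and 9.52 CPM in BN1 and at 0.808, 0.212 and 0.282 CPM in control. Only 2 reads were counted in AFFN1 against 21 in control, a ratio of 0.0959 (95% counting interval 0.0109 to 0.392). Tmem132e, a membrane protein gene, was at 6.7, 12.3 and 7.62 CPM in BN1, 0.133, 0.12 and 0.189 CPM in AFFN1 and 0.373, 0 and 0.678 CPM in control. Tmem218, a gene of the primary cilium, had 240 reads in BN1 against 2 in control, a ratio of 120 (32.8 to 993), and 8 in AFFN1, a ratio of 4.03 (0.804 to 38.9). Fam221a was at 4.54 ± 0.471 CPM with BN1 and 0.125 ± 0.167 with AFFN1 (SD, n = 3). These counting intervals cover counting error only, here as elsewhere.

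The AFFN1 class held 6 genes and was led by Crip1 (ENSMUSG00000006360; mm10 chromosome 12, 113146316 to 113153879), a small LIM domain protein. Its level on day 6 was 0, 0.0705 and 0.226 CPM in control, 0.118, 0 and 0.127 CPM in BN1 and 24.3, 25.4 and 19.6 CPM in AFFN1, 234-fold the control mean. Ajuba, a LIM protein of cell junctions and Hippo signalling, was at 15.8, 13.1 and 8.83 CPM in AFFN1, 0.882, 0.912 and 0.889 CPM in BN1 and 0.808, 0.0705 and 0.508 CPM in control. Its 3 BN1 libraries lay just above the highest control library. Ttc30a1 (ENSMUSG00000075271; mm10 chromosome 2, 75978247 to 75981967), which encodes a protein of intraflagellar transport, had 0 reads in control. It was at 8.35, 9.06 and 5.88 CPM in AFFN1, at least 124-fold higher when 3 reads over the control group are taken as the floor.

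Bcl3, an atypical I-kappa-B protein that binds NF-kappa-B subunits, was at 4.18 ± 0.4 CPM in AFFN1 and 2.14 ± 1.17 CPM in BN1 against 0.183 ± 0.0869 CPM in control (SD, n = 3). Every library of both fusions was above every control library for this gene. Lrrc15, a leucine-rich repeat membrane protein known from fibroblasts, was at 6.17, 6.05 and 4.16 CPM in AFFN1. The summed stromal markers of these libraries were 44.1, 170 and 54.7 CPM. In control, Lrrc15 was at 0.311, 0.494 and 0.452 CPM while stromal markers were at 64.8, 31.5 and 106 CPM. The part of stromal cells in the Lrrc15 level was not tested. AW011738 was at 4.71, 4.13 and 3.41 CPM in AFFN1, 0.148 ± 0.077 CPM in control and 0.144 ± 0.0687 CPM in BN1.

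Per kilobase of exon, which allows levels of different genes to be compared, Pafah1b3 was the highest of the genes on in BN1, at 9.61 CPM per kilobase, ahead of Klk8 at 5.76 and Gnb4 at 4.43. In AFFN1 Crip1 was the highest at 10.1 CPM per kilobase, followed by Ajuba at 3.45 and Pafah1b3 at 3.04. Gnb4, first by CPM in BN1, has 12.7 kilobases of annotated exon, against 2.11 for Pafah1b3.

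The limits cut through a continuous range of levels. Just inside the control limit were Ajuba, Cldn34c1 and Pafah1b3, at 0.462, 0.457 and 0.455 CPM. Just outside it were Smad1, Tenm4 and Ajm1, at 0.528, 0.536 and 0.545 CPM in control and 5.09, 8.58 and 4.26 CPM in BN1. At the fusion limit AW011738, Nrgn and Bcl3 were inside with 4.08, 4.17 and 4.18 CPM, and Cmtm3, Gm33280 and Tstd3 were outside with 3.91, 3.82 and 3.57 CPM. The same limits with the roles exchanged, at least 4 CPM in control and at most 0.5 CPM in a fusion, held 33 genes for BN1 and 3 for AFFN1 on day 6, where 23 and 13 genes were silent in control and on in the fusion, the excluded genes included. With limits of 0.25 and 8 CPM 5 of the 27 genes were left. Without the third control library 35 genes were within the limits, of which 25 were among the 27.

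All 27 genes were annotated as protein coding, and they lay on 15 chromosomes. No gene next to a member in the annotation was itself a member. The closest pair was Tmem218 and Nrgn on chromosome 9, 320 kilobases apart with 11 measured genes between them, followed by Scube3 and 4930539E08Rik on chromosome 17, 722 kilobases apart with 30 genes between them. Of the 54 nearest measured genes on either side, 20 were at 1 CPM or more in control or in the fusion on day 6 (BN1 for members on in both). Of these, 1 (5%) was over 2-fold higher in the fusion on the log2(CPM + 0.5) scale and none was over 2-fold lower. Over all genes at that level, 3.92% were higher and 3.12% lower in BN1, and 4.09% and 2.66% in AFFN1. The exception was Poglut2, a protein O-glucosyltransferase gene that starts 0.149 kilobases from Bivm, at 0.887 CPM in control, 11.8 CPM in BN1 and 5.8 CPM in AFFN1. Beside Gnb4, Mfn1 (1.09 kilobases away) was at 44.8, 40.7 and 39.5 CPM in control, BN1 and AFFN1, and Actl6a at 156, 128 and 136 CPM.

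Some members share sequence or position with other genes, and no source used here gives the strand setting of the counting. Prodh overlaps Dgcr6 on the opposite strand, which was at 17.9, 30 and 21.4 CPM in control, BN1 and AFFN1 on day 6, and Ctbs overlaps Spata1, at 2.15, 3.75 and 2.44 CPM. The labels name a stranded kit, but the counting may not have used the strand. Reads of Prodh and Ctbs may therefore include reads of these genes. Ttc30a1 lies 0.077 kilobases from Ttc30a2, a near copy that was at 0.542 CPM in AFFN1, so the split of reads between them is uncertain. The related Ttc30b was at 0.847 CPM in control, 5.01 CPM in BN1 and 3.21 CPM in AFFN1. Cldn34c1 also belongs to a family of near copies, of which Cldn34c2 had 16 reads in the 18 libraries and Cldn34c4 had 0.

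Close relatives of some leading genes were already present in control cells, and those of others were low or absent. Gnb1 and Gnb2 were at 298 and 297 CPM in control on day 6, 286 and 280 CPM in BN1 and 310 and 293 CPM in AFFN1, while Gnb3 had 1 read in all libraries and Gnb5 was at 2.97 to 4.13 CPM. Sox4, of the same subgroup as Sox12, was at 439, 566 and 612 CPM, and Sox11 had 0 reads. Map4k4, a kinase of the Tnik family, was at 246, 263 and 305 CPM. Of the relatives of Crip1, Crip2 was at 1.41, 2.29 and 1.66 CPM and Crip3 at 0 CPM in all these groups. Of the 13 kallikrein-related genes none but Klk8 reached 0.1 CPM in any group of day 6, including Klk9 and Klk7 on either side of it. Among 14 genes of the Scube and hedgehog list, the receptor component Smo, which is no member, was at 2.29 CPM in control, 48 CPM in BN1 and 33.2 CPM in AFFN1 on day 6, and at 9.93, 15.3 and 13.1 CPM on day 14. The lists of germ cell genes, of the Hoxb, Hoxc and Hoxd clusters, of the Eya family with its homeobox partners, and of synapse genes held none of the 27 genes. The synapse list did not include the member Nrgn, which encodes neurogranin.

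Start-site windows from RefSeq (GRCm38.p6, the build of mm10), 250 bases before to 50 after each start, were found for 22 of the 27 genes, in 25 windows. Gnb4, Pafah1b3, Kctd17, Tnik and 4930539E08Rik had none. Most were rich in CpG: the ratio of observed to expected CpG was above 0.6 in 21 windows (84%), at a median of 0.71, and in at least 1 window of 20 genes. This compares with 35.4% of all 32851 windows and with 69.8% of the 11613 windows of genes tested on day 14. Crip1 and Ctbs were the genes below 0.6. Of the motifs searched on both strands, which may overlap each other, the GC box GGGCGG was in 18 windows (72%), against 35.7% of all windows and 62.4% of those of tested genes. The E-box CANNTG was in 14 windows (56%), against 72.3% and 63.3%, and TATAAA in 1 (4%), against 13.6% and 6.79%. TGATTGA was in 3 windows (12%), against 2.7% and 1.98%, but 2 of these are the overlapping windows of Tmem218 and the other is that of Trib2. TGACAG was in 4 windows (16%, against 19.2% and 16.8%), TGACGT in 2 (8%, against 7.51% and 11.8%), which are the overlapping windows of Tmem218, and GGAAGT in 6 (24%, against 23.8% and 29.3%). Windows are shown for 3 of the 4 genes called on day 14 in BN1 against control with the replicate block described below. These are Zfp518b (chr5:38684777-38685076, minus strand), Prodh (chr16:18089141-18089440, minus strand) and Trib2 (chr12:15816736-15817035, minus strand). The window of Ankrd63, also called, has a ratio of 0.67 and is not shown. Crip1 (chr12:113151762-113152061, plus strand), which has a low CpG ratio, is shown as well. The windows are written 5′ to 3′ along the gene with each CG in capitals.
Zfp518b: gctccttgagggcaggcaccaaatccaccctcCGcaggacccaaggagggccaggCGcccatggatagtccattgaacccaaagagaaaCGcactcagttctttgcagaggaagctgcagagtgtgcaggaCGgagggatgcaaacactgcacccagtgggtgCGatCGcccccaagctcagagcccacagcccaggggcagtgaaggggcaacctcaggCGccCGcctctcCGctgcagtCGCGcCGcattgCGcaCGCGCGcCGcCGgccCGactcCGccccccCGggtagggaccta
Prodh: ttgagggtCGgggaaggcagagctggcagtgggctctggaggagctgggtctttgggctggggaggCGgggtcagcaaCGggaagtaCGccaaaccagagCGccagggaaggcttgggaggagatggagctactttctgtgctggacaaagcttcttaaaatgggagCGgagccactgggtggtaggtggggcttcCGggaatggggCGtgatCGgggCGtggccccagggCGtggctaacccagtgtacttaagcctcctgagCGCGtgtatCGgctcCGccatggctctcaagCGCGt
Trib2: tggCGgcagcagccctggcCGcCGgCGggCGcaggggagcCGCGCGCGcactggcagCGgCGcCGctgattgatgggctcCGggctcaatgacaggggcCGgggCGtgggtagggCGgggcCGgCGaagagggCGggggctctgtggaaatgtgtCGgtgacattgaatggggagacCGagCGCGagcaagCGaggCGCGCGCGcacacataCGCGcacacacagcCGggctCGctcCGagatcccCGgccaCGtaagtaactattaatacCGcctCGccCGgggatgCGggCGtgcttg
Crip1: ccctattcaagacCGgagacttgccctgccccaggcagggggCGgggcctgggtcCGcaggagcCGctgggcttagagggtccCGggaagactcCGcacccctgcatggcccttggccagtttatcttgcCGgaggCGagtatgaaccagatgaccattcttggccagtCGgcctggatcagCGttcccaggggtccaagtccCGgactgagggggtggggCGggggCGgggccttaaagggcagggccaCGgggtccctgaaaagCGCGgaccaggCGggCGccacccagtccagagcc
The Trib2 window holds 40 CG pairs and has a ratio of 1.09. Those of Zfp518b, Prodh and Crip1 hold 21, 17 and 18, at ratios of 0.64, 0.63 and 0.52.

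**Figure D3:**
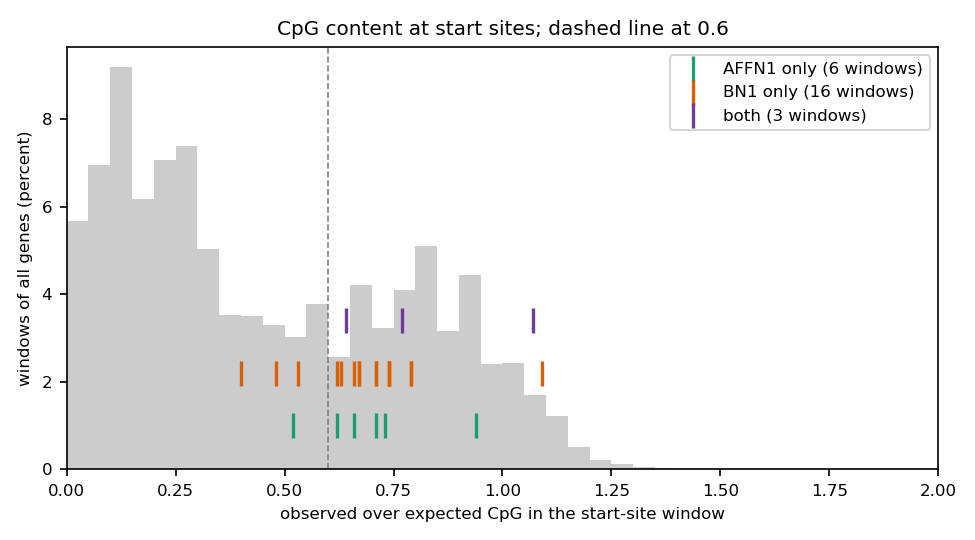
Grey bars show the share of all RefSeq start-site windows, in percent, by their ratio of observed to expected CpG, and ticks mark the 25 windows of the 27 genes by class (their height has no meaning). The ticks lie between 0.4 and 1.09, 21 of them above the dashed line at 0.6.

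By day 14 most of these genes were no longer silent in control cells. In 21 of the 27 genes (77.8%) the control mean was above 0.5 CPM. Of all 20443 genes at or under 0.5 CPM in control on day 6, 360 (1.76%) were above it on day 14. That larger set includes genes with no read at all, since only 5689 of it had any read in a fusion on day 6. The 27 genes had to reach 4 CPM in a fusion, so these shares are not of like sets. Of the 27 genes the highest was Crip1, at 145, 142 and 131 CPM in control. Pafah1b3 was at 25.7, 68.2 and 95.1 CPM, Nrgn at 10.4, 37.5 and 26.8 CPM, Ajuba at 15.6, 23.7 and 13.5 CPM and Bivm at 16.7, 9.53 and 7.74 CPM. Gnb4 varied between the control libraries, at 16.4, 2.42 and 3.62 CPM. Since control cells of day 6 were chosen to be low and the days may be separate experiments, this difference between days is a description only.

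The 6 genes still at or under 0.5 CPM in control on day 14 were Zfp518b, Ppm1j, Klk8, Scube3, Ttc30a1 and Lrrc15. For 4 of them the fusions were low as well. Scube3 had 0 CPM in all control and BN1 libraries and 0.0548 CPM in 1 AFFN1 library. Klk8 was at 0.204 ± 0.161 CPM in BN1, Ttc30a1 at 0.294 ± 0.255 CPM in AFFN1 and Lrrc15 at 0.351 ± 0.466 CPM in AFFN1 (SD, n = 3). None of the 27 genes met the limits of the choice on day 14, at which 3 genes of the whole table were silent in control and at 4 CPM or more in a fusion. With limits of 1 and 2 CPM, 4 of the 27 did, which were Tnik, Zfp518b, Bcl3 and 4930539E08Rik. The share of all genes that met these looser limits was not counted. Tnik was at 0.49, 1.71 and 0.724 CPM in control and 2.21, 1.39 and 2.64 CPM in BN1. 4930539E08Rik was at 1.58, 0.22 and 0.613 CPM in control and 2.48, 1.12 and 3.93 CPM in BN1. For both genes BN1 overlapped with control. Bcl3 was at 1.31, 0.441 and 0.947 CPM in control and 3.88, 1.37 and 1.61 CPM in AFFN1.

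**Figure D4:**
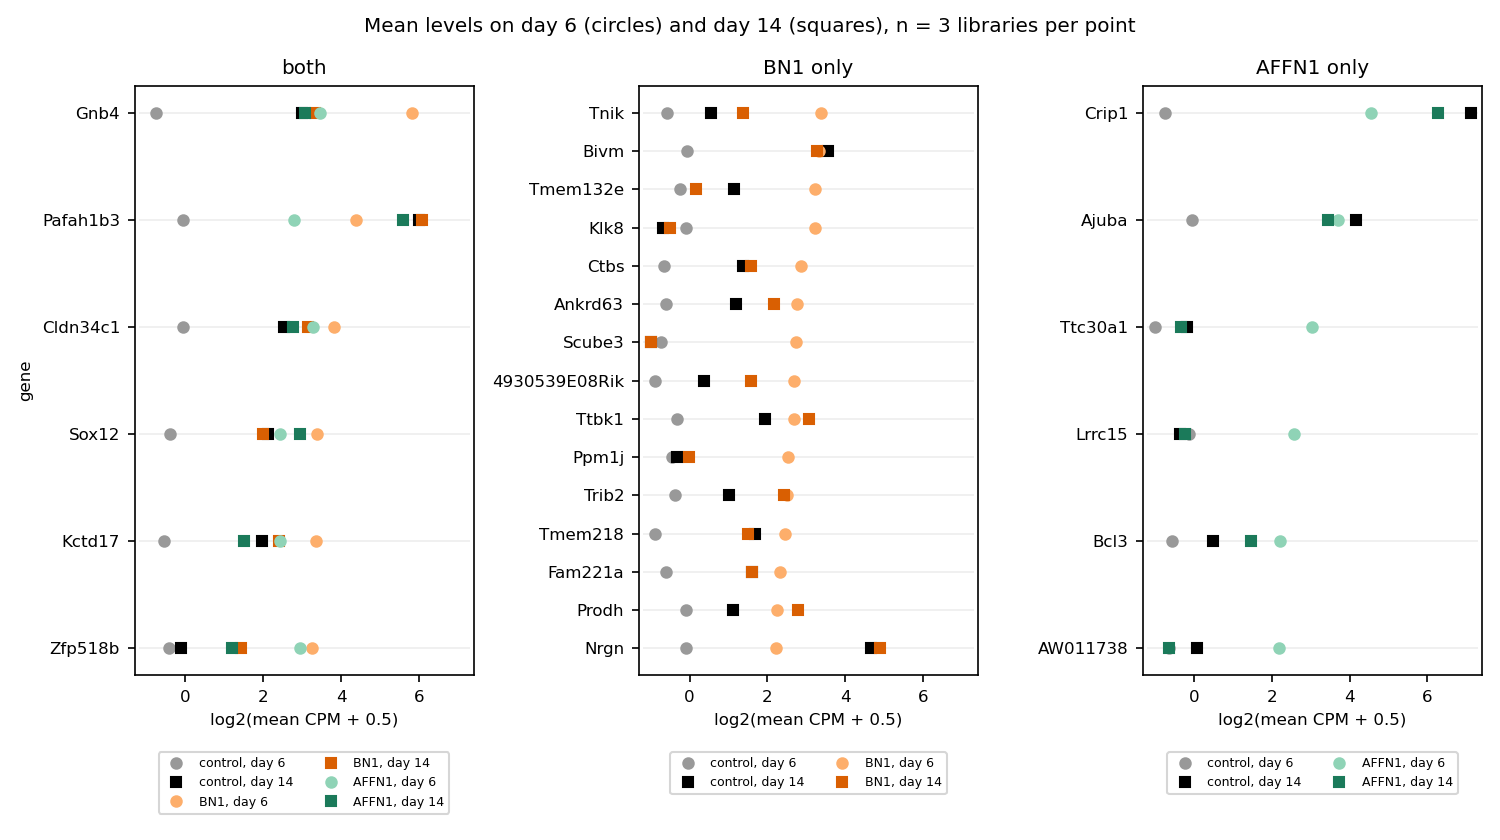
Points are group means of 3 libraries as log2(CPM + 0.5), with day 6 as circles and day 14 as squares, in 1 panel per class. The control means of day 6 are at the left in most rows, and the control means of day 14 lie beside those of the fusions for Gnb4, Pafah1b3 and Nrgn but to the left of them for Zfp518b.

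Whether the fusions raised these genes on day 14 was tested in a fit across 11657 genes with edgeR's quasi-likelihood test. Of the 27 genes, 23 passed the filter on low counts. Klk8, Scube3, Ttc30a1 and AW011738 did not. In BN1 against control none of the 23 was called at an adjusted p under 0.05, where 0.0257% of all tested genes (3 genes) were, 0.0172% as higher and 0.00858% as lower. At an unadjusted p under 0.05 there were 3 members and 2351 genes in all, and 7 members and 3516 genes with the replicate block described next. The labels give libraries of equal number a shared code on day 14 and these libraries deviated together, so a fit with the replicate number as a block is given beside it. With the block, 4 of the 23 rose and none fell, where 11.6% of all tested genes were called, 4.95% as higher and 6.61% as lower. DESeq2 without the block called Zfp518b and Prodh, where 5.64% of its tested genes were called, 2.49% as higher and 3.15% as lower.

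Markers of cell types moved in the same comparison with the block, where 4.95% of all tested genes were higher and 6.61% lower. Of 15 hematopoietic and early B-lineage markers 4 were higher in BN1 (Rag1, Rag2, Il7r and Kit). Of 14 T, NK and innate lymphoid markers 5 were tested and 3 were higher (Nkg7, Klrb1c and Tcf7). Cd5 was at 19.3 CPM in control and 17 CPM in BN1 on day 14. Cd3e, Cd8a, Gzmb, Ncr1 and Bcl11b were at 0 CPM in both. Of 3 tested erythroid and megakaryocyte markers 2 were lower (Hbb-bs and Hbb-bt). The summed T, NK and innate lymphoid markers were at 23.9 to 48.8 CPM in control and 57.4 to 71 CPM in BN1 on day 14, and the summed hematopoietic and early B-lineage markers at 6480 to 8870 CPM and 10200 to 12100 CPM. No myeloid, stromal or endothelial marker was called. The part of these shifts in the members' levels was not tested.

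The 4 genes called with the block were Prodh, Zfp518b, Trib2 and Ankrd63, and for each all 3 BN1 libraries were above all 3 control libraries. Prodh was at 1.52, 2.48 and 1 CPM in control and 7.55, 9.2 and 2.58 CPM in BN1, numbered 1 to 3. It rose 3.56-fold (log2 fold change 1.83, SE 0.29, adjusted p = 0.0108 by edgeR with the block, 0.122 without and 0.0108 to 0.341 over all alternatives). Its overlapping neighbour Dgcr6 was at 20.5 CPM in control and 28 CPM in BN1. Zfp518b was at 0.435, 0.33 and 0.501 CPM in control and 1.38, 1.84 and 3.37 CPM in BN1, a 4.74-fold rise (log2 fold change 2.24, SE 0.42, adjusted p = 0.0147 by edgeR with the block, 0.108 without and 0.00244 to 0.298 over all alternatives).

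Trib2 was at 0.598, 1.98 and 2.01 CPM in control and 2.81, 7.19 and 4.55 CPM in BN1 on day 14, a 3.27-fold rise with the block (edgeR, adjusted p = 0.029, 0.266 without it and 0.0182 to 0.547 over all alternatives). Ankrd63 was at 0.979, 2.59 and 1.84 CPM in control and 2.65, 5.35 and 3.93 CPM in BN1, a 2.15-fold rise with the block (edgeR, adjusted p = 0.0409, 0.189 without it and 0.0409 to 0.452 over all alternatives). With the block and without the libraries numbered 2, none of the 4 was called, nor any other member, where 1.22% of all tested genes were, and without those numbered 1 Ankrd63 was not. Without those numbered 3, Prodh was called and the other 3 were not. Ttbk1, with 2.94, 2.7 and 4.34 CPM in control and 7.28, 5.8 and 10.4 CPM in BN1, was also apart from control but was not called (edgeR with the block, adjusted p = 0.122). Without the libraries numbered 1 the fit with the block called 6 members as higher, Zfp518b, Prodh, Trib2, Gnb4, Ajuba and 4930539E08Rik, where 2.6% of all tested genes were higher. Without those numbered 3 it called Prodh and Pafah1b3, where 2.23% were higher.

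Over the 23 tested members the median log2 fold change of BN1 against control on day 14 was 0.43, and it was 0.53 with the block, where the median of all tested genes was 0. Of the 23, 17 had a positive log2 fold change in both fits. Groups were apart with BN1 higher in 5 members, and apart with BN1 lower in none, where 15.6% and 12.1% of all tested genes were. In the numbered pairs BN1 was higher in 3 of 3 for 9 members and lower in 3 of 3 for 1 (Tmem132e), against 29.6% and 20.3% of all tested genes.

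**Figure D5:**
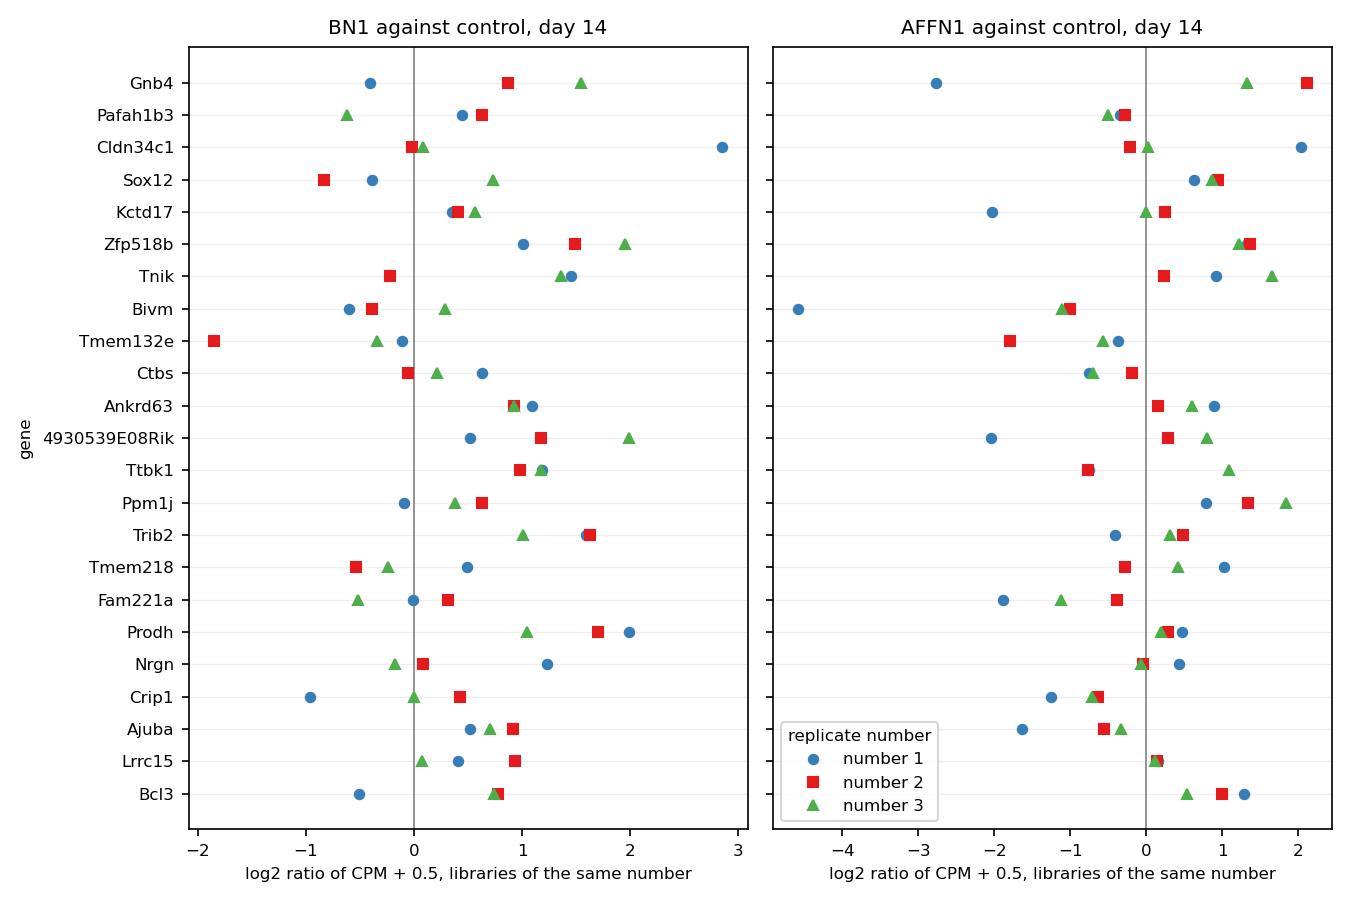
Each symbol is the log2 ratio of CPM + 0.5 between a fusion and the control library of the same number on day 14, for the 23 tested genes, with BN1 at the left and AFFN1 at the right. All 3 symbols lie above 0 for Zfp518b in both panels and for Prodh, Trib2, Ankrd63 and Ttbk1 with BN1, and number 1 lies below the others for Gnb4, Bivm, Kctd17 and 4930539E08Rik with AFFN1.

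In AFFN1 against control on day 14 none of the 23 was called by edgeR, without the block (0.0429% of all genes called, 0.0257% higher and 0.0172% lower) or with it (0.558%, 0.317% higher and 0.24% lower). At an unadjusted p under 0.05 there were 7 members without the block and 10 with it, of 721 and 1422 genes in all. DESeq2 called 1 member, Zfp518b, where 0.569% of its tested genes were called, 0.322% as higher and 0.247% as lower. Zfp518b was at 1.86, 1.64 and 1.83 CPM in AFFN1, above every control library (edgeR, log2 fold change 2.08, SE 0.42, adjusted p = 0.0716 with the block, 0.268 without and 0.0267 to 0.632 over all alternatives). Ppm1j, of the BN1 class on day 6, was at 0.929, 1.04 and 2.89 CPM in AFFN1 and 0.326, 0.11 and 0.446 CPM in control (edgeR, log2 fold change 2.37, SE 0.52, adjusted p = 0.0845 with the block, 0.51 without and 0.0212 to 0.987 over all alternatives). In BN1 Ppm1j was at 0.276, 0.446 and 0.73 CPM and overlapped with control.

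Both day 14 comparisons with control use the same control libraries. Groups were apart with AFFN1 higher in 4 members (Sox12, Zfp518b, Ppm1j and Bcl3) and lower in 3 (Bivm, Fam221a and Crip1), against 4.17% and 4.7% of all tested genes. In the numbered pairs AFFN1 was higher in 3 of 3 for 8 members and lower in 3 of 3 for 7, against 17.7% and 22.2%. The median log2 fold change of the 23 members was 0.26, and -0.02 over all tested genes. Bivm was at 0.219, 4.49 and 3.33 CPM in AFFN1 and 16.7, 9.53 and 7.74 CPM in control. Crip1 was at 60.6, 91.4 and 79.7 CPM in AFFN1, below every control library, and at 74.3, 190 and 131 CPM in BN1, which overlapped with control. Without the libraries numbered 1 and with the block, edgeR called 5 members between AFFN1 and control. Gnb4, Ppm1j and Zfp518b were higher, where 1.34% of all tested genes were, and Bivm and Crip1 lower, where 0.905% were. For Gnb4 the first control and AFFN1 libraries, at 16.4 and 1.97 CPM, ran opposite to the other pairs.

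Between BN1 and AFFN1 on day 14 none of the 23 was called by edgeR (0% of all genes) or with the block (0.18%, 0.0686% higher and 0.112% lower), and DESeq2 called none (0.715% of its tested genes, 0.424% higher and 0.291% lower). At an unadjusted p under 0.05 there were 6 members without the block and 9 with it, of 992 and 1930 genes in all. The lowest adjusted p with the block was that of Ajuba, at 22.6, 45 and 22.2 CPM in BN1 and 4.7, 15.9 and 10.6 CPM in AFFN1 (edgeR, log2 fold change 1.49, SE 0.25, adjusted p = 0.062, and 0.003 to 0.856 over all alternatives). Without the libraries numbered 1 and with the block, 2 members were called, Ajuba and Crip1, both higher in BN1, where 0.581% of all tested genes were higher. On day 6 Ajuba had 12.6 ± 3.51 CPM in AFFN1 and 0.894 ± 0.0156 CPM in BN1 (SD, n = 3). Groups were apart with BN1 higher in 4 members (Kctd17, Bivm, Ctbs and Ajuba) and lower in 3 (Sox12, Ppm1j and Tmem218), against 11.6% and 4.84% of all tested genes. In the numbered pairs BN1 was higher in 3 of 3 for 12 members and lower for 3, against 27% and 12.4%. Of genes that were near 0 in 1 fusion on day 6, Tmem218 was at 2.26, 2.57 and 2.13 CPM in BN1 and 3.5, 3.18 and 3.66 CPM in AFFN1, with AFFN1 the higher in every library. Fam221a was at 2.32, 3.74 and 1.52 CPM in BN1 and 0.273, 2.14 and 0.833 CPM in AFFN1.

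The pathway lists that hold a member were read in the same day 14 fits. Without the block no gene of any of them was called. With the block, BN1 against control had 1 of 17 tested genes of intraflagellar transport higher (Ift81), 2 of 10 tested Wnt and Tcf pathway genes higher (Tcf7l2 and Lef1), and of 11 tested small LIM domain genes 1 higher (Zyx) and 1 lower (Csrp2). Of all tested genes 4.95% were higher and 6.61% lower in this fit. None of these list genes was one of the 27 genes, and no gene of these lists was called in the other comparisons of day 14.

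The genes whose day 14 levels ran most like a leading member over the 9 libraries were found by Pearson correlation of log2(CPM + 0.5) among 11657 genes. Gnb4 ran most like Xlr4a (r = 0.943), Kcmf1 (0.909) and Ncs1 (0.901), Tnik like Serinc3 (0.95), Gm16124 (0.945) and Parp16 (0.936), and Crip1 like C130046K22Rik (0.946), Gm12216 (0.933) and Dctn5 (0.926). The points share depth and replicate number, and the values are a description. They are the highest of many correlations over 9 libraries, and how high such maxima run for unrelated genes was not tested.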

How the data were processed

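RNA was measured in 18 mouse libraries, 3 in each of 6 groups. The authors deposited 1 table of expected counts per gene. The submitters' processing notes name STAR, RSEM, DESeq2 and build mm10. No source used here gives versions, annotation or strand setting. Libraries were prepared with a stranded poly(A) kit, per the labels. Between 1.74 and 2.12% of values were not whole, and counts were rounded for tests. Coordinates are from GENCODE M21, which holds 99.8% of the gene identifiers.

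The 27 genes and the gene lists were chosen with earlier results of these data known. CPM is the count over the library total. Day 14 was fitted on its 9 libraries with edgeR 4.0.16 in R 4.3.3 (filterByExpr, TMM, robust quasi-likelihood test, two-sided, Benjamini-Hochberg over all tested genes, called under 0.05). SE is the log2 fold change over the root of F. Alternatives were DESeq2 1.42.0 and others listed at the end. On day 14 the 9 pairs of equal number correlated at 0.29 to 0.612 in their deviations from group means and the 18 other pairs at -0.503 to 0.0122. The shared codes of these libraries in the descriptions are where the pairing comes from. The edgeR fit without the block, for BN1 against control on day 14, was tested on simulated data. The fit with the block was not. Genes named are the leading 10 of each class by day 6 level, those nearest the limits, members called on day 14, members within limits on day 14, members of the lists and the 3 genes most like each leading member. Relatives, overlapping genes, neighbours and other members were named after their values were seen.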

Additional observations from a re-analysis of the deposited data

Results flagged for a closer look

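Crip1 and Bivm are given here because all 3 AFFN1 libraries were above all control libraries on day 6 and below all of them on day 14. For Crip1 the AFFN1 libraries of day 6 were at 24.3, 25.4 and 19.6 CPM and the control libraries at 0 to 0.226 CPM. On day 14 AFFN1 had a mean of 77.2 CPM against 139 CPM in control (edgeR, adjusted p = 0.704, and 0.163 with the replicate block). For Bivm the AFFN1 libraries of day 6 were at 3.78, 4.07 and 3.97 CPM and the control libraries at 0.282 to 0.565 CPM. On day 14 AFFN1 had a mean of 2.68 CPM against 11.3 CPM in control (edgeR, adjusted p = 0.756, and 0.439 with the replicate block). The means of Poglut2, the neighbour of Bivm, ran the same way. They were 0.887 CPM in control and 5.8 CPM in AFFN1 on day 6, and 13.4 and 1.98 CPM on day 14. For Crip1 and Bivm neither day 14 difference was called. The difference between the days was not tested, since the day 6 values chose the genes.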

How the results depend on the processing

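The number of genes within the day 6 limits was 27 with TMM-scaled CPM and 5 with limits of 0.25 and 8 CPM, and it ranged from 23 to 35 without 1 library. None met the limits on day 14, also when any library was left out, and 4 did with limits of 1 and 2 CPM. In BN1 against control on day 14 no member was called in the fit without a block, 4 with the replicate block, 2 by DESeq2 and 2 in a fit of all 18 libraries. Leaving out libraries, with or without the block, gave 0 to 6. In AFFN1 against control DESeq2 called 1 and leaving out libraries gave 0 to 5, and between BN1 and AFFN1 leaving out libraries gave 0 to 2. The cause was not tested. Over all tested genes, BN1 against control gave 3 calls without the block and 1348 with the block. It gave 5 with RLE scaling, 646 by DESeq2, 17 with no filter, 691 with all 18 libraries and 0 to 21 without 1 library. AFFN1 against control gave 5 without the block and 65 with the block. It gave 76 by DESeq2, 25 with no filter, 51 with all 18 libraries and 0 to 9 without 1 library. BN1 against AFFN1 gave 0 without the block and 21 with the block. It gave 91 by DESeq2, 5 with no filter, 76 with all 18 libraries and 0 to 1 without 1 library. RLE scaling and no filter left the number of members called at 0 in all 3 comparisons. The replicate block changed no call of a member beyond those 4. Of 119 alternative values for the 7 single-gene fold changes followed, 16 passed the threshold where the fit without the block did not, and none changed direction. Against the genes tested on day 14, the share of background windows rich in CpG was 69.8% instead of 35.4%. Members below 1 CPM rest on at most 18 reads per library, which limits their precision.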
